A study of Mus musculus with 4 samples.

Results

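The TNF superfamily comprises cytokines related to tumour necrosis factor and the cell surface receptors they bind. Its members on this array were taken by gene name: every non-control probe named Tnfrsf or Tnfsf followed by a number, together with Tnf, Lta, Ltb, Ltbr, Ngfr, Cd40 and Cd27. This gave 38 genes (14 ligands and 24 receptors) read by 50 probes, of 50090 gene names and 61307 probes in all. RNA came from C3H10T1/2, a mouse embryo fibroblast line whose normal growth stops at contact and which is used to score transformation by chemicals. The 2 control arrays held RNA of cells kept in culture for 6 weeks, and the labels name no solvent given to them. The other 2 arrays held RNA of cells given 3-methylcholanthrene (3MC), a tumour-initiating polycyclic hydrocarbon, for 2 days at 2.5 µg/ml. After 4 days in normal medium these cells received the phorbol ester tumour promoter TPA at 100 ng/ml, repeatedly over 2 weeks, followed by 4 weeks without it. Transformed foci were scored in parallel flasks, and the labels describe no picking of foci before RNA was taken.

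Ligands of this family are mostly trimers that sit in the cell membrane or are cut free by proteases, and they signal by clustering their receptors. Receptors with a death domain can start apoptosis or necroptosis, whereas the others recruit TRAF adaptor proteins and activate NF-kB and MAP kinases. Decoy receptors bind a ligand without passing on a death or TRAF signal. Fibroblasts are known as responders to TNF, lymphotoxin and TWEAK, and as a source of osteoprotegerin, which keeps RANKL from its receptor.

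Each value below is a log2 signal relative to the 75th percentile of its own array, so 0 is a signal at that percentile. Probes differ in brightness, and levels are therefore compared between arrays for 1 probe and never between genes. A gene is read by its brightest probe. It was tested when the Feature Extraction software flagged that probe as well above background on both arrays of at least 1 group. In this RNA of whole cultures, fewer cells of a type and less RNA per cell cannot be told apart. Whether the pair of arrays in each group stands for separate cultures is not in the labels. The p-values therefore reflect array-to-array spread alone, and this spread may be technical. With all 4 arrays on 1 slide and 1 scan, the place of an array on it cannot be told apart from its group. Between 32125 and 32512 non-control spots per array were well above background, and the lowest such signal lay between -4.82 and -4.71. The 8 fibroblast markers were measured on all 4 arrays. Of the leukocyte markers 7 of 12 were not well above background on any array, among them Ptprc, Itgam and Tyrobp, as were 3 of 7 epithelial markers (Cdh1, Krt18, Krt19) and 3 of 5 endothelial markers (Pecam1, Cdh5, Kdr).

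Of the 38 members, 21 were tested. Of these, 6 were lower in the 3MC+TPA cultures, 1 was higher and 14 did not pass at an adjusted p of 0.05 (limma, 2-sided, Benjamini-Hochberg adjustment over 24976 gene names). The genes that fell were the receptors Tnfrsf21, Tnfrsf19, Tnfrsf11b and Tnfrsf14 and the ligands Ltb and Tnfsf13b. Tnfsf18, the ligand of GITR, was the member that rose. Over all gene names tested, 15.7% were called in either direction, 8.35% lower and 7.34% higher. Values of the groups did not overlap in 17 of the 21 members and in 15926 of the 24976 gene names, so a lack of overlap was common. Ltb, Ngfr, Tnfrsf18, Tnfrsf19, Tnfrsf21 and Tnfsf13b entered the test only through the control arrays, which selects for lower values after exposure, and 4 of these 6 are among the 6 lower members. No member entered only through the 3MC+TPA arrays. Among the 15 members measured on all 4 arrays, 1 was higher, 2 were lower and 12 did not pass, where 13.2% of the gene names measured on all arrays were called. The median log2 change of these 15 was -0.07, beside -0.01 over the 22642 gene names measured on all arrays. By role, the 10 receptors among them had a median of -0.30 with 2 lower (Tnfrsf11b and Tnfrsf14). The 5 ligands among them had a median of 0.58 with 1 higher (Tnfsf18). Over all 7 ligands tested the median was -0.06, with 1 higher and 2 lower. Over all 14 receptors tested it was -0.54, with 4 lower. Without the filter on dim probes only Tnfrsf21 passed, and under the methods' t-test with Benjamini-Hochberg adjustment no member did, against 4 at an unadjusted p under 0.05. Left unscaled, the arrays moved the median of all gene names to 0.34, 79.1% of the calls were higher in place of 46.8%, and 3 members were called higher.

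**Figure D1:**
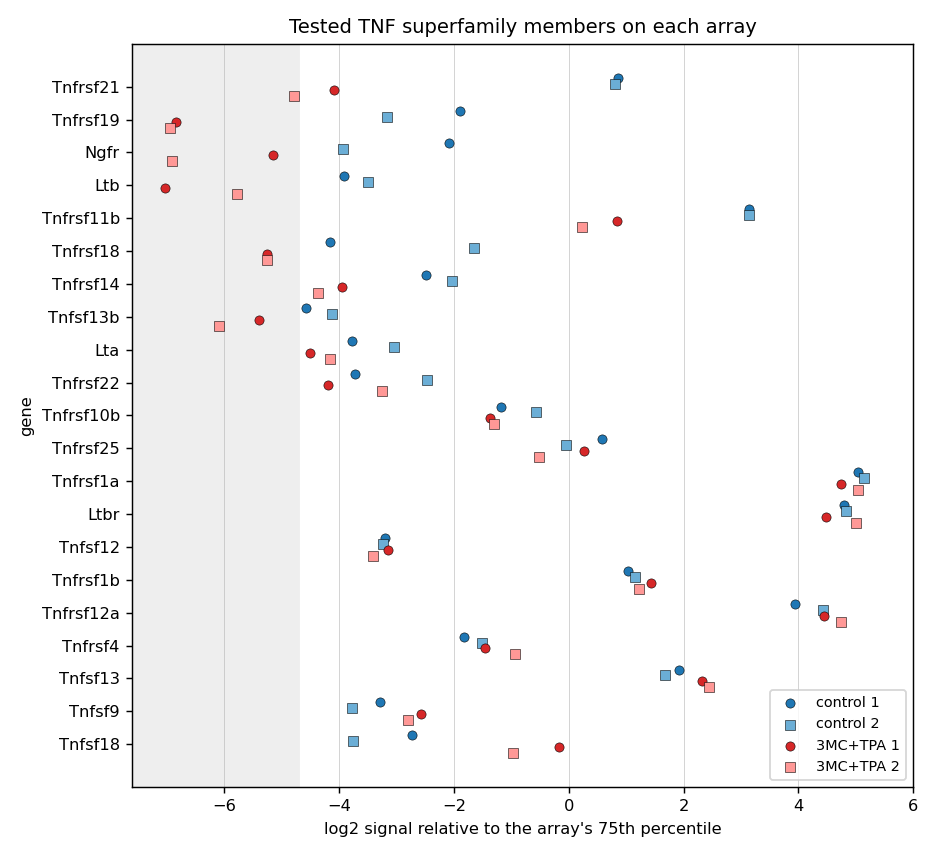
Log2 signal (horizontal axis, relative to the array's 75th percentile) of the 21 tested members, 1 point per array, blue for control and red for 3MC+TPA; grey marks signals under -4.71, the highest of the 4 arrays' lowest well-measured levels. Control points of Tnfrsf21 lie at 0.85 and 0.80 and its exposed points at -4.09 and -4.79, whereas the points of Tnfrsf1a and Ltbr all lie between 4.48 and 5.15.

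The death domain receptors were all measured, and 1 of the 5 changed. Tnfrsf21, death receptor 6, which can trigger cell death and restrains T helper responses, had a log2 signal of 0.85 and 0.80 on the control arrays and of -4.09 and -4.79 on the 3MC+TPA arrays. Both control arrays were high, both exposed arrays were low, and the second exposed array was no longer well above background. The gene fell by 5.27 ± 0.26 on the log2 scale (SE, 2 arrays a group), a 38.5-fold difference with an adjusted p of 0.00085 (limma). With another background correction (normexp, offset 50) the change was -3.68, which also passed. A second probe of Tnfrsf21 read -0.56 and -0.70 in control and -5.44 and -5.31 after exposure, with both exposed arrays not well above background, and was at least 18.1-fold lower (limma over probes, adjusted p = 0.00028). Such a bound sets the control mean against the lowest signals measured on the exposed arrays. The probes share no run longer than 5 bases, so they read separate stretches of sequence; they are shown, 5′ to 3′ as printed on the array, because this is the largest change among the members.
Tnfrsf21 probe 1: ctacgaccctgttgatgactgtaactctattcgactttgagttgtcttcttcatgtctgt
Tnfrsf21 probe 2: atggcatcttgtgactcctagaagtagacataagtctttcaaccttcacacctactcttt

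Ngfr, the p75 neurotrophin receptor, gave opposite readings on its probes. Probe 1 read -2.09 and -3.93 in control and -5.16 and -6.91 after exposure, with both exposed arrays not well above background. Probe 2 read -4.98 and -4.81 in control, where it was not well above background, and -4.50 and -4.47 after exposure. Neither difference passed in the fit over probes: -3.02 ± 0.80 for probe 1 (limma adjusted p = 0.066) and 0.41 ± 0.16 for probe 2 (adjusted p = 0.15). No direction is therefore given for this gene. The sequences of the disagreeing probes, which share no run longer than 6 bases, are:
Ngfr probe 1: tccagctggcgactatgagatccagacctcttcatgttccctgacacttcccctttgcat
Ngfr probe 2: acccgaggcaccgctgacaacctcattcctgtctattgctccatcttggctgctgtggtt

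Tnfrsf1a, the main receptor for soluble TNF, was read at 5.04 and 5.15 in control and at 4.73 and 5.04 after exposure. These levels nearly met, and the change of -0.21 ± 0.18 did not pass (limma adjusted p = 0.46), with a 95% interval from -0.66 to 0.25. Tnfrsf10b, the mouse receptor of the death ligand TRAIL, was at -1.17 and -0.58 in control and at -1.37 and -1.30 after exposure. Its change of -0.46 ± 0.24 did not pass (adjusted p = 0.24), and its other probes gave -0.30 and -0.34. Tnfrsf25, death receptor 3, the receptor of TL1A on lymphocytes, read 0.58 and -0.05 in control and 0.27 and -0.53 after exposure, overlapping values with a change of -0.39 ± 0.35 (adjusted p = 0.49). Its second probe was not well above background on any array.

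**Figure D2:**
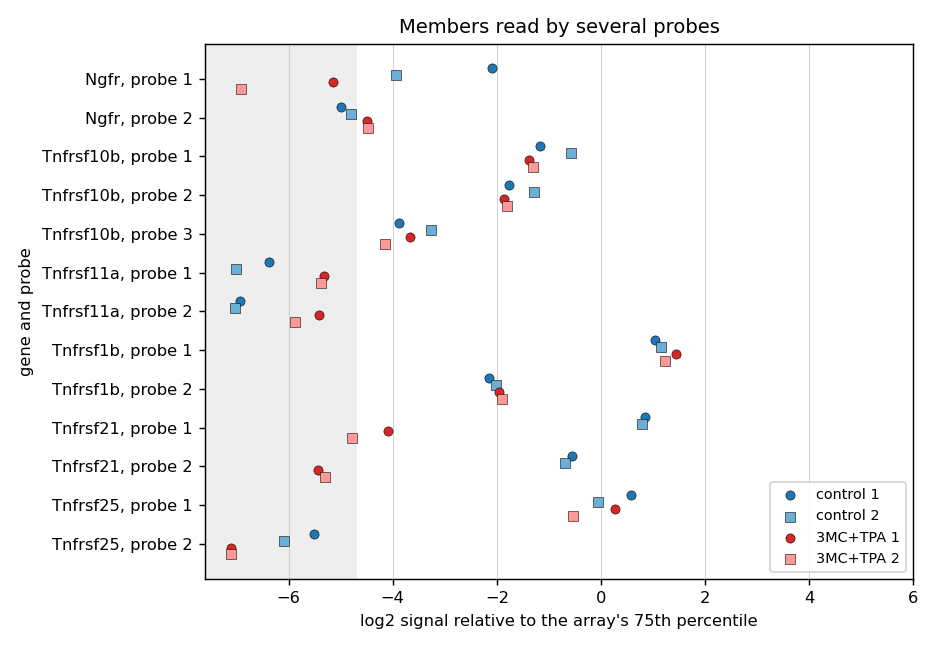
Log2 signal (horizontal axis, relative to the array's 75th percentile) of each probe of 6 members read by more than 1 probe, blue for control and red for 3MC+TPA arrays, with signals under -4.71 on grey. Both probes of Tnfrsf21 show low exposed points, the probes of Ngfr differ in direction, and those of Tnfrsf1b and Tnfrsf10b show small shifts.

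Among the decoy receptors, osteoprotegerin fell. Tnfrsf11b encodes this secreted protein, which binds RANKL and TRAIL. Its log2 signal was 3.15 and 3.14 on the control arrays and 0.84 and 0.22 on the 3MC+TPA arrays. The control arrays nearly coincided and lay far above both exposed arrays, all well above background. The decrease was 6.11-fold (log2 change -2.61 ± 0.24, limma adjusted p = 0.0043), and over the alternatives the change lay between -2.92 and -2.26. The mouse decoy TRAIL receptor Tnfrsf22 read -3.73 and -2.47 in control and -4.19 and -3.25 after exposure. These groups overlapped, and the change of -0.62 ± 0.51 did not pass (adjusted p = 0.45). Its neighbour Tnfrsf23, also a decoy for TRAIL, was well above background on 1 control array only and was not tested. Osteoprotegerin was read by this single probe, shown because its fall was measured on all 4 arrays:
Tnfrsf11b probe: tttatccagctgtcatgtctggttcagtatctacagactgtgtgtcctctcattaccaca

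The partners of osteoprotegerin were near or under the limit of measurement. Tnfsf11, which encodes RANKL, read -3.71 on control array 2 and between -7.09 and -6.97 on the other 3 arrays, and its second probe was not well above background on any array. Tnfrsf11a, which encodes the receptor RANK, was not well above background on any array by either probe. Its probe 1 read -6.37 and -7.01 in control and -5.32 and -5.37 after exposure, values under the lowest well-measured level that give no fold. Tnfsf10, which encodes TRAIL, was also not well above background, at -4.74 and -5.20 in control and -6.04 and -5.13 after exposure.

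Of the other tissue receptors, 1 of 3 tested changed. Tnfrsf19, also called TROY, an orphan receptor of skin, nervous system and mesenchymal progenitors, read -1.89 and -3.16 in control and -6.84 and -6.94 after exposure. Both control arrays were well above background and neither exposed array was. It was at least 4.85-fold lower after exposure (log2 change in the fit -4.37 ± 0.42, limma adjusted p = 0.0049). The change was -3.73 without control replicate 1 and -5.00 without control replicate 2. In these fits the gene's own spread comes from the exposed arrays alone, which lay at background. With normexp the change was -1.43, which falls short of the bound, and it passed. From control array 1 or 2 alone the bound was 7.52-fold or 3.13-fold.

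Ltbr, the lymphotoxin beta receptor through which stromal cells answer lymphotoxin and LIGHT, was read at 4.80 and 4.82 in control and at 4.48 and 5.00 after exposure. The exposed arrays lay on either side of the control arrays. The change of -0.07 ± 0.22 did not pass (limma adjusted p = 0.85), its 95% interval ran from -0.63 to 0.49, and its sign turned under several settings. Tnfrsf12a, the TWEAK receptor Fn14, which rises in injured tissue, read 3.94 and 4.44 in control and 4.44 and 4.74 after exposure, a change of 0.40 ± 0.23 that did not pass (adjusted p = 0.29). Tnfrsf26 was not well above background on any array.

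The receptors best known from immune cells number 8, and 4 were tested. Tnfrsf14, or HVEM, which binds LIGHT, lymphotoxin alpha and the inhibitory receptor BTLA, was the 1 that changed. Its log2 signal was -2.48 and -2.03 in control and -3.95 and -4.37 after exposure, all well above background. The control arrays were higher than both exposed arrays, and the decrease was 3.74-fold (log2 change -1.90 ± 0.24, limma adjusted p = 0.011). Without 3MC+TPA replicate 2 the change was -1.69 and no longer passed (adjusted p = 0.060), and with normexp it was -1.03 and passed.

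Tnfrsf18, the receptor GITR, read -4.16 and -1.64 in control and -5.25 on both exposed arrays, where it was not well above background. The control arrays lay far apart. The gene did not pass (limma adjusted p = 0.11), and the bound of at least 3.74-fold lower became 1.56-fold from control array 1 alone and 8.94-fold from control array 2 alone. Without control replicate 1 the change was -3.61 (adjusted p = 0.0017) and without control replicate 2 it was -1.09 (adjusted p = 0.042), but in these fits the gene's own spread comes from the exposed arrays alone, which lay at background with an SD of 0.0017. Tnfrsf1b, the second TNF receptor, which prefers membrane-bound TNF, read 1.03 and 1.15 in control and 1.44 and 1.23 after exposure. Its change of 0.24 ± 0.16 did not pass (adjusted p = 0.36), with a 95% interval from -0.18 to 0.66, and its other probe gave 0.16. Tnfrsf4, the T cell costimulator OX40, read -1.83 and -1.51 in control and -1.46 and -0.93 after exposure, a change of 0.48 ± 0.24 (adjusted p = 0.24). The costimulatory receptors Cd27, Cd40 and Tnfrsf8 were not well above background on any array, and Tnfrsf9 was so on 1 control array only. The receptors for BAFF and APRIL on B cells (Tnfrsf13b, Tnfrsf13c and Tnfrsf17) were not well above background on any array.

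Among the 14 ligands 7 were tested, and GITR ligand was the one that rose. Tnfsf18 encodes this costimulator, which binds the receptor Tnfrsf18. Its log2 signal was -2.74 and -3.75 on the control arrays and -0.17 and -0.97 on the 3MC+TPA arrays, all well above background. Both exposed arrays were above both control arrays, although the arrays of each group differed by about 1 log2 unit in control and somewhat less after exposure. The rise was 6.39-fold (log2 change 2.68 ± 0.43, limma adjusted p = 0.019), and 278 gene names (1.11%) rose by at least as much. The call was lost without either exposed array, at 2.28 without replicate 1 (adjusted p = 0.086) and 3.08 without replicate 2 (adjusted p = 0.056), and with normexp the change was 1.83 and passed. Its probe, shown as the reading behind the one rise, was:
Tnfsf18 probe: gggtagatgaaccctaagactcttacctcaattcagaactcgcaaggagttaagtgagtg

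The lymphotoxin and TNF genes stand side by side on chromosome 17 in the order Ltb, Tnf, Lta, with no coding gene between them. Ltb, the membrane anchor of the lymphotoxin heterotrimer that binds the lymphotoxin beta receptor, read -3.92 and -3.49 in control and -7.04 and -5.78 after exposure. Neither exposed array was well above background. Ltb was at least 2.14-fold lower (log2 change in the fit -2.71 ± 0.44, limma adjusted p = 0.020). Without control replicate 2 the change was -2.49 and did not pass (adjusted p = 0.060), without 3MC+TPA replicates 1 and 2 it was -2.08 and -3.34, and with normexp it was -0.81, short of the bound, though it passed there. Lta, the soluble subunit, was well above background on all 4 arrays at -3.78 and -3.04 in control and -4.51 and -4.17 after exposure, and its change of -0.93 ± 0.29 did not pass (adjusted p = 0.097). Tnf itself read -6.14 and -6.88 in control and -6.93 and -6.99 after exposure, not well above background on any array.

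Of the BAFF and APRIL ligands, which support B cells, 1 fell. Tnfsf13b, which encodes BAFF, read -4.58 and -4.12 in control, close to the lowest measured level, and -5.39 and -6.08 after exposure, where it was not well above background. It was at least 1.37-fold lower (log2 change in the fit -1.39 ± 0.30, limma adjusted p = 0.039), and the call was lost in 11 of 17 alternatives. The change was -0.50 with normexp, where it passed, and -0.45 with signals floored at the dimmest well-measured level, where it did not. Tnfsf13, which encodes APRIL, read 1.92 and 1.68 in control and 2.32 and 2.44 after exposure. Its exposed arrays were higher without overlap, but the change of 0.58 ± 0.17 did not pass (adjusted p = 0.083), though it did unscaled, with normexp and with an intensity trend. Tnfsf12, which encodes TWEAK and lies next to Tnfsf13 on chromosome 11, read -3.20 and -3.23 in control and -3.14 and -3.41 after exposure, overlapping values with a change of -0.06 ± 0.17 (adjusted p = 0.85).

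Tnfsf9, the ligand of 4-1BB, read -3.29 and -3.78 in control and -2.57 and -2.80 after exposure. Both exposed arrays were higher, and the change of 0.85 ± 0.22 narrowly missed the threshold (limma adjusted p = 0.064). It passed unscaled, without control replicate 1 and with a stricter filter on dim probes. The ligands Tnfsf4, Tnfsf8 and Tnfsf15 were not well above background on any array. Tnfsf14, which encodes LIGHT, was well above background on 1 array of each group and was not tested.

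**Figure D3:**
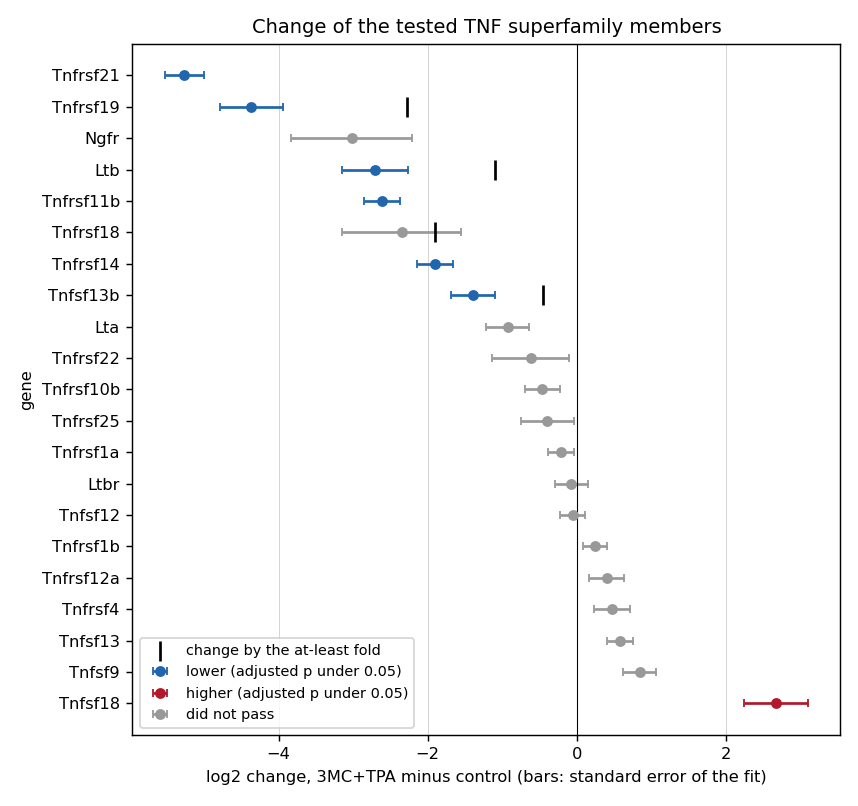
Log2 change (horizontal axis, 3MC+TPA minus control) of the 21 tested members, with bars for the standard error of the fit; blue marks genes that passed as lower, red as higher and grey those that did not pass, and black ticks give the change by the at-least fold. Tnfrsf21 lies lowest at -5.27 and Tnfsf18 highest at 2.68, while the ticks of Ltb and Tnfsf13b lie much nearer to 0 than their fitted points.

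**Figure D4:**
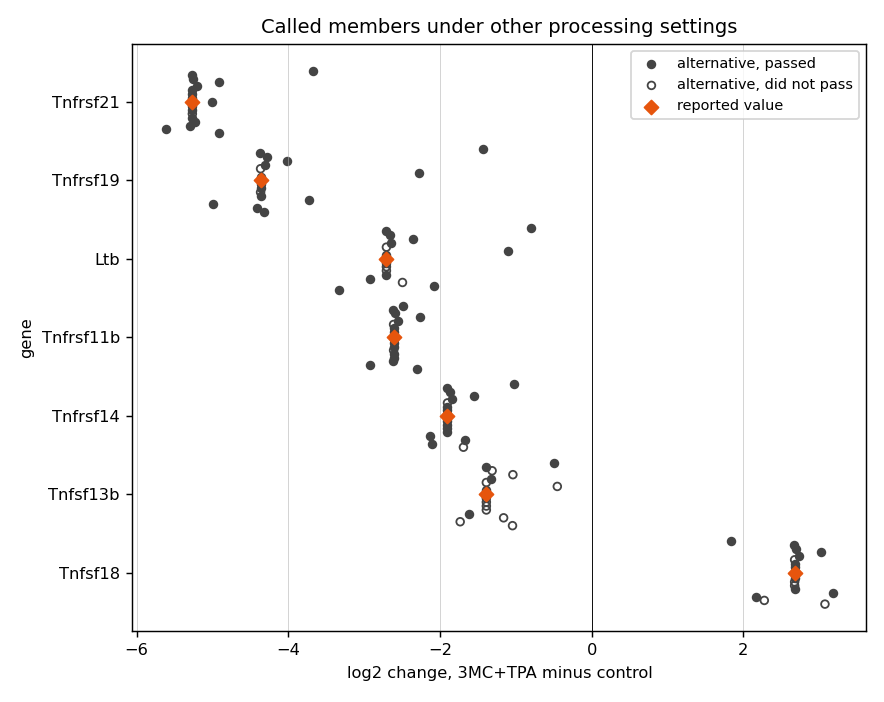
Log2 change (horizontal axis, 3MC+TPA minus control) of the 7 called members under the alternatives of processing and testing, filled where the adjusted p passed and open where it did not (for the unadjusted t-test, where the raw p passed or not), with an orange diamond for the reported value. No point crosses 0, Tnfrsf11b stays between -2.92 and -2.26, and most points of Tnfsf13b are open.

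Several members are direct neighbours in the RefSeq gene table of GRCm38.p6. On chromosome 1 Tnfsf18 lies between Tnfsf4 and Fasl with no coding gene between them, and of these 3 only Tnfsf18 was well above background on any array. On chromosome 4 Tnfrsf18 is next to Tnfrsf4, and neither passed. On chromosome 6 Ltbr and Tnfrsf1a are separated by 1 coding gene, Scnn1a, and neither passed. On chromosome 7 Tnfrsf26, Tnfrsf22 and Tnfrsf23 are adjacent, and of them only Tnfrsf22 was tested.

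RefSeq promoter sequences, the 250 bases before a start site on GRCm38.p6, were at hand for 30 of the 38 members (34 start sites). They were searched on both strands for 5 exact spellings of the kB element bound by NF-kB. Of these spellings, 1 is the reverse complement of another, so on both strands they find the same matches. The AP-1 letters TGANTCA, known as the phorbol ester response element, were searched as well. Each kB spelling was in 0.0852% to 0.14% of 32851 promoters. Of the member promoters 1 held the commonest of them, that of Ltb at position -87 from the start site, and 1 held another, that of Tnfrsf9 at -43. The loose kB pattern, GGG and CC with any 5 bases between them, covers these matches and was in 21 of the 34 member promoters and in 45.8% of all. TGANTCA was in the promoters of 5 members (Tnfrsf8, Tnfrsf9, Tnfsf13, Tnfsf13b and Tnfsf14) and in 6.75% of all promoters. Of these 5, Tnfsf13b fell and Tnfsf13 did not pass, and the others were not tested. Such a match describes the sequence only. Shown, in capitals where an exact kB spelling lies, are the promoter of Ltb (chr17:35194257-35194506, plus strand) and, as the member with the largest fall, that of Tnfrsf21 (chr17:43016305-43016554, plus strand), in which none of these letters were found.
Ltb promoter: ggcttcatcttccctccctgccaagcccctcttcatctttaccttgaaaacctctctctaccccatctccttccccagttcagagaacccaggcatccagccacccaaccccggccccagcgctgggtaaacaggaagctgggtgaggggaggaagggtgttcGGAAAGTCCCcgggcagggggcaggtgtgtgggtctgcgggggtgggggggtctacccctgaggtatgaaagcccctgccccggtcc
Tnfrsf21 promoter: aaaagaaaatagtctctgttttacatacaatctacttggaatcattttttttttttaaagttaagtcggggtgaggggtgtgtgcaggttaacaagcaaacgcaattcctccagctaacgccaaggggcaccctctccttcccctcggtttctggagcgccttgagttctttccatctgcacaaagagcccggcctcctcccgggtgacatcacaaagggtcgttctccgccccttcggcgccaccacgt

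Receptors and ligands of the superfamily that carry other names were listed apart. Of 8 such genes 4 were tested, 2 fell and none rose, with a median of -0.76. Over all gene names tested 15.7% were called, 8.35% were lower and the median was -0.01. Fas, the receptor of Fas ligand, read 5.39 and 5.78 in control and 3.13 and 2.66 after exposure (log2 change -2.69 ± 0.24, limma adjusted p = 0.0039). Eda2r, the receptor of ectodysplasin A2, read 0.29 and 1.18 in control and -1.14 and -1.18 after exposure (-1.89 ± 0.31, adjusted p = 0.020), and did not pass without either exposed array (adjusted p = 0.094 and 0.10). Edar, the receptor of ectodysplasin A1, and Relt did not pass, with changes of 0.77 ± 0.37 and 0.37 ± 0.19 (adjusted p = 0.22 and 0.23). The ligands Fasl, Cd40lg and Cd70 were not well above background on any array.

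Among the genes that carry the receptors' signal, Traf6, Traf1 and Nfkbie changed; the shares called lie beside 15.7% over all gene names tested. Of 22 adaptors and regulators 21 were tested, 1 was higher and 1 lower, with a median of 0.12. Traf6, an adaptor of RANK and CD40, rose from -1.26 and -1.34 to -0.38 and -0.04 (log2 change 1.09 ± 0.18, limma adjusted p = 0.021). Traf1, an adaptor bound by TNF receptor 2 and itself inducible by NF-kB, fell from -0.63 and -0.86 to -1.95 and -1.56 (-1.02 ± 0.20, adjusted p = 0.033). Neither passed without any one of the 4 arrays, with adjusted p between 0.051 and 0.12. Of 14 NF-kB genes, all tested, 1 was lower and none higher, with a median of -0.14. This was Nfkbie, the inhibitor IkB epsilon, which read 3.18 and 3.00 in control and 1.95 and 2.17 after exposure (-1.03 ± 0.17, adjusted p = 0.020). It did not pass without control replicate 1 or either exposed array (adjusted p from 0.061 to 0.095).

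In the death signalling list all 12 genes were tested, 2 rose and none fell, and the median change was -0.05. This count is near the 15.7% called over all gene names tested. The genes that rose, Mlkl and Ripk3, act in necroptosis. Mlkl, the protein that breaks the membrane, read 0.49 and -0.65 in control and 2.47 and 2.71 after exposure, a 6.37-fold rise (log2 change 2.67 ± 0.39, limma adjusted p = 0.015). Ripk3, the kinase that activates it, read -2.68 and -3.54 in control and -1.09 and -0.60 after exposure, a 4.80-fold rise (2.26 ± 0.35, adjusted p = 0.017), at 1.48 with normexp, where it passed. In both genes each exposed array was above each control array. Without 3MC+TPA replicates 1 and 2 the adjusted p was 0.072 and 0.089 for Mlkl and 0.059 and 0.089 for Ripk3. Of 6 genes that cut ligands and receptors free or control this, 5 were tested. Of these 1 fell and none rose, with a median of -0.46, where 8.35% of all gene names tested were lower. Timp3, which inhibits the TNF-cutting enzyme ADAM17, read 6.48 and 6.81 in control and 5.80 and 5.90 after exposure (-0.80 ± 0.18, adjusted p = 0.047), and this call was lost in 10 of 18 alternatives.

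Genes known to be induced by TNF in fibroblasts were lower in many cases. Of 24 such genes 22 were tested, 12 fell, none rose and 10 did not pass, where 8.35% of all gene names tested were lower. Csf2 and Mmp9 entered only through the control arrays, and over the 20 genes measured on all 4 arrays 10 fell and the median was -1.18. Mmp3, the matrix protease stromelysin-1, had the largest change at -9.33 ± 0.29 (limma adjusted p = 0.00027), or -8.63 with normexp. The growth factor gene Csf2 (GM-CSF) had a bound of at least 15.9-fold lower, with a change in the fit of -5.67 ± 0.42 (adjusted p = 0.0023). With normexp its change was -2.66, short of that bound, and without 3MC+TPA replicates 1 and 2 it was -6.27 and -5.06, passing in each. The neutrophil chemokine Cxcl5 changed by -5.22 ± 0.15 (adjusted p = 0.00022). The list was chosen with earlier results of these data known, so its direction is no independent evidence. Many of these genes also answer other stimuli, and activity of the receptors was not measured. Of the 8 fibroblast markers, Pdgfra and Pdgfrb were lower in the same cultures. Their changes were -1.47 ± 0.25 and -1.02 ± 0.17 (limma adjusted p = 0.021 and 0.022). Thy1 was higher (2.98 ± 0.69, limma adjusted p = 0.048), with control arrays far apart at 2.98 and 0.86. The other 5 fibroblast markers did not pass. The endothelial marker Tek, which entered only through the 3MC+TPA arrays, was at least 1.77-fold higher (limma adjusted p = 0.0092). Vwf, the other endothelial marker tested, changed by -0.79 ± 0.42 and did not pass (adjusted p = 0.26). Of the leukocyte markers 4 were tested and of the epithelial markers 3, and none passed. Marker signals, each divided by its array's 75th percentile and summed, were 0.428 and 0.480 in control and 0.423 and 0.482 after exposure for leukocytes. They were 0.294 and 0.309 against 0.286 and 0.314 for epithelium, and 0.138 and 0.130 against 0.127 and 0.176 for endothelium. Their part in the members' changes was not tested.

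**Figure D5:**
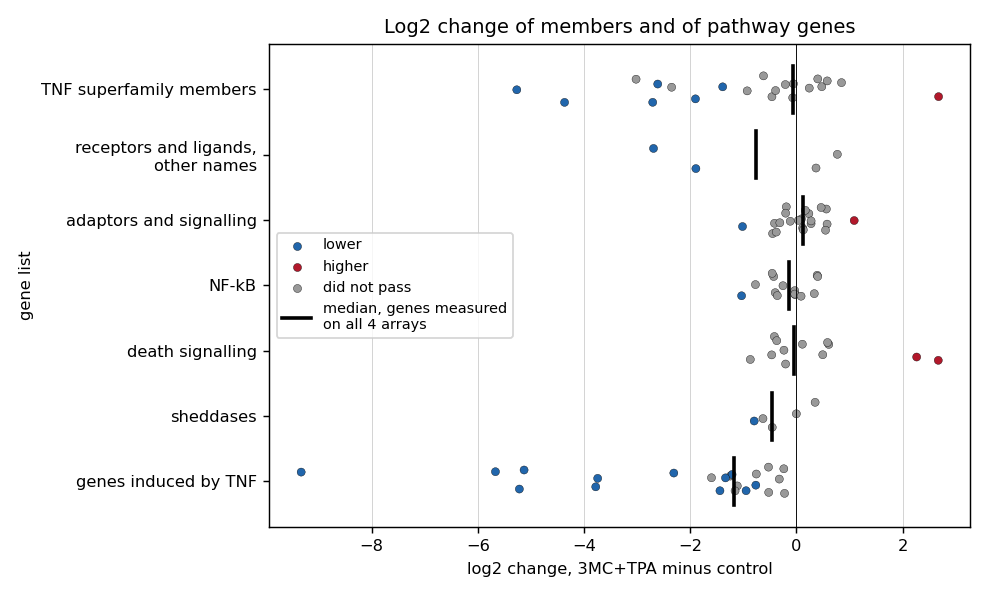
Log2 change (horizontal axis, 3MC+TPA minus control) of each tested gene in the members and in 6 pathway lists, blue where it passed as lower, red as higher and grey where it did not pass, with a black bar at the median of each list's genes measured on all 4 arrays. The genes induced by TNF lie furthest to the left, with a median of -1.18, and the 2 red points of death signalling are Ripk3 and Mlkl.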

How the data were processed

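RNA of control and 3MC+TPA-exposed cells was read on 4 single-colour Agilent arrays, 2 a group, and groups were taken from the sample titles. Per the file headers, Feature Extraction 10.7.3.1 made the processed signal, an intensity corrected for background, and the unprocessed mean and background intensity of each spot. The authors' deposited table holds log2 values, which match the processed signals, put on a log2 scale and lowered by each array's 75th percentile, within 0.01 for at least 61236 of 61307 probes. Its genes are not centred and its sign follows the scanner; the column medians are -4.29, -4.31, -4.39 and -4.35. The design text names GeneSpring GX 11.5 and a t-test, with its threshold not given in the sources used.

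Here, log2 processed signals were scaled by the 75th percentile over non-control spots (538.9 and 594.0 in control, 698.5 and 744.6 after exposure). On each array, the 1319 control spots and 20 to 68 outlier spots were left out, and no spot was saturated. Groups were fitted with limma 3.58.1 under R 4.3.3 (lmFit, then eBayes, without covariates). The 2-sided p-values were adjusted by Benjamini-Hochberg. The code of the fit was also run on simulated data, in which each gene's spread was drawn without regard to its signal. That run is therefore no check of the calls on dim genes. Errors beside log2 changes are standard errors of the fit. An at-least fold sets the measured group's mean against, on each array of the other, whichever is higher, that probe or the dimmest signal still well measured. Alternatives covered background, scaling, filter, floor, probe choice, test, replicate block and leaving out each array, where the lone array left in a group is assumed to vary like the other group. Symbols are those of the files, and the RefSeq tables of GRCm38.p6 gave gene order and promoters. Every tested member was named with its values, and from each pathway list up to 3 called genes of the largest change. Untested members, the other genes of the lists and the markers were named outside that rule, after values were seen. Members and lists were chosen with earlier results of these data known.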

Additional observations from a re-analysis of the deposited data

How the results depend on the processing

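With 2 arrays a group, precision is limited by their number, and a signal under the dimmest well-measured level gives only a bound. The 7 called members kept their sign in every alternative run. The counts below for genes measured on all 4 arrays come from a separate fit of those 22642 gene names alone. In the Results, the calls of the 15 members measured on all 4 arrays come from the fit over all 24976 gene names tested. Members called higher (1 as reported) numbered 2 with normexp, 3 without scaling, 0 without the filter on dim probes, 2 among genes measured on all 4 arrays, 2 with an intensity trend, 0 by the methods' t-test before and after Benjamini-Hochberg adjustment, and 0 to 2 when each array was left out. Members called lower (6 as reported) numbered 1 without the filter, 2 among genes measured on all 4 arrays, 0 by the adjusted t-test and 4 to 8 with an array left out. Over all gene names 3917 were called, against 6688 without scaling, 926 without the filter, 21 by the adjusted t-test and 1186 to 3278 with an array left out. In the pathway lists 3 genes were called higher, against 6 with normexp, 12 without scaling, 0 without the filter, 5 with the trend, 7 by the unadjusted and 0 by the adjusted t-test, and 0 to 2 with an array left out; 17 were lower, against 5 without the filter, 0 by the adjusted t-test and 6 to 18 with an array left out. Signs turned for members that had not passed: Ltbr to 0.047 with quantile normalization, 0.28 without scaling and between -0.33 and 0.19 with an array left out; Tnfrsf1a to 0.14 without scaling; Tnfsf12 to 0.29 without scaling, 0.0074 with median scaling and between -0.19 and 0.076 with an array left out. With an array left out Tnfrsf22 lay between -1.25 and 0.0056 and Tnfrsf25 between -0.79 and 0.0059. The cause was not tested. Replicate numbers are shared by the groups. Over the gene names tested, the difference between replicates in control was not correlated with that after exposure (correlation 0.0015). Whether same-numbered arrays shared a culture or a handling step is not in the labels, and this correlation cannot decide it. With the replicate block 8 members passed, 1 higher and 7 lower, and 3407 gene names were called. Tnfsf13b was lost (adjusted p = 0.061, limma), and Lta (0.049) and Ngfr (0.0028) were gained. The Ngfr call rests on its brighter probe alone, whose exposed arrays were not well above background. The other probe of Ngfr moved the opposite way, so no direction is given for this gene here either.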

Other observations

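One spot would mislead a reader of the processed values. The second probe of Tnfrsf9, the receptor 4-1BB, had processed signals of 4.4 and 4.3 on the control arrays and 4.9 on 3MC+TPA array 1. On 3MC+TPA array 2 its signal was 63722.3, and there the Feature Extraction software marked the spot as an outlier. The authors' deposited table lists this probe at -6.94, -7.10, -7.14 and 6.42 in that order. The spot was left out here, and the brighter probe of the gene read -4.20, -4.84, -5.81 and -5.99 on the same arrays.

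Some untested genes were well above background on 1 array of a group. Tnfsf14 read -3.89 on control array 1 and -3.49 on 3MC+TPA array 1, against -4.83 and -5.37 on the second array of each group. Tnfrsf23 read -3.85 on control array 2 and between -5.87 and -5.54 on the others. Eda, a superfamily ligand outside the name rule, read -4.12 on 3MC+TPA array 1, -5.06 on 3MC+TPA array 2 and -6.98 and -7.07 in control.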
